A study of Homo sapiens with 6 samples.

Results

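FLT3, the transcription factors STAT5A and STAT5B, and 7 transcripts that STAT5 is known to induce (PIM1, PIM2, PIM3, SOCS1, SOCS2, SOCS3 and CISH) were examined in MOLM13 cells. The 10 genes were taken by symbol from the pathway, with earlier results of these data known, and all 10 were among the 56305 genes in the files and among the 20399 that passed the filter on low counts. MOLM13 is an acute myeloid leukemia cell line whose labels give a FLT3 internal tandem duplication and a t(9;11)(p22;q23) translocation, so both groups carry these lesions. Cells were treated for 24 h with DMSO, the solvent control, or with ZW27941 at 1 μM, a PROTAC that recruits the ubiquitin ligase VHL to degrade METTL3, and 3 libraries of each were sequenced. The libraries held from 143454176 to 153825333 counts on genes in DMSO and from 143621822 to 178744976 on ZW27941. The labels do not say whether replicates were separate cultures, so p-values measure only the spread between these libraries, which may be technical. The degrader acts on the METTL3 protein, so the level of the METTL3 transcript is no check of the labels. The paper measured some transcripts on ZW27941 by quantitative real-time PCR, and MYC and CDKN1A among them are compared below.

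FLT3 is a receptor tyrosine kinase of early myeloid cells. The internal tandem duplication makes it signal without ligand, and unlike the normal receptor it strongly phosphorylates STAT5, which then enters the nucleus and binds palindromic sites in its target genes. The PIM kinases, which support survival and translation, have no regulatory domain, so their activity follows their abundance. SOCS proteins and CISH close the circuit by blocking cytokine receptors and JAK kinases. METTL3 writes N6-methyladenosine (m6A) on mRNA, and in mouse T cells its loss has been described to stabilise transcripts of Socs genes.

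The promoter of CISH is shown because it carries the STAT5 palindrome in several copies, and that of SOCS1 because it belongs to the transcript whose level differed most. Promoter sequences (250 bases before to 50 after the start, RefSeq, GRCh38.p14) were found for 9 of the 10 genes, SOCS2 being the exception. They were searched for TTCNNNGAA, which reads the same on both strands, and capitals mark each match. The first sequence lies at chr3:50611725-50612024 and the second at chr16:11256155-11256454, both on the minus strand.
CISH: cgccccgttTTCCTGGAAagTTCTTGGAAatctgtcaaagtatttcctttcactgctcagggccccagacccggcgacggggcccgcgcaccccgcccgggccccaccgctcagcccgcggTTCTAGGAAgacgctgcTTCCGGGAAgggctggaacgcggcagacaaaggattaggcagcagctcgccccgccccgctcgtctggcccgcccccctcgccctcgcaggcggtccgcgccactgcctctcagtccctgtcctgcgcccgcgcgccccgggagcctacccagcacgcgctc
SOCS1: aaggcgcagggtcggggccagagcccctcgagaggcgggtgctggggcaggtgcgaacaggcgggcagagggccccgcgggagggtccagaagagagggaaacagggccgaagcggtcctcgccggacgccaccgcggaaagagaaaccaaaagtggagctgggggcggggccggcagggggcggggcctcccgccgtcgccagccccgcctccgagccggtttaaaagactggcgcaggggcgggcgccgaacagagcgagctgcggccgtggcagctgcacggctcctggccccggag
The CISH promoter held 4 matches, the first bases of which lay 241, 230, 129 and 112 bases before the start. Only 7 of 35116 promoters of this length (0.0199%) held at least 4 matches, whereas 7.66% held at least 1. No match was found in the promoters of the other 8 genes with a sequence. This says only that these letters are not within these windows. The windows follow RefSeq start sites, and some genes have more than 1, so the 9 genes gave 12 sequences. For STAT5B, PIM1, PIM3 and SOCS3, no window covers the gene start in GENCODE v29, the source of the positions given below. The SOCS3 windows lie at chr17:78360876-78361175 and chr17:78359618-78359917, apart from its start at 78360077.

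Of the 10 transcripts, 3 rose (SOCS1, SOCS2 and PIM2), 2 fell (PIM1 and PIM3) and 5 did not pass the test (FLT3, STAT5A, STAT5B, SOCS3 and CISH). Calls rest on the quasi-likelihood F-test of edgeR, with p-values adjusted by the Benjamini-Hochberg method over all 20399 genes and a limit of 0.05. Among all genes tested, 30.1% were called, 16.3% as higher and 13.8% as lower. Detection depends on abundance. Of the 7 named genes whose mean log2 CPM reached 5, a limit set after the values were seen, 3 were called, where 48.2% of all genes at that level were. The DMSO and ZW27941 libraries did not overlap for 6 of the 10 genes, which was the case for 41.6% of all genes tested. The 10 genes had a median log2 fold change of 0.017, beside −0.0019 for all genes tested. Levels are in CPM, counts scaled to a common library total after TMM normalization of library sizes, and fold changes are ZW27941 minus DMSO on the log2 scale. In bulk RNA, a shift in the share of cells that express a gene and a change per cell cannot be told apart.

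**Figure D1:**
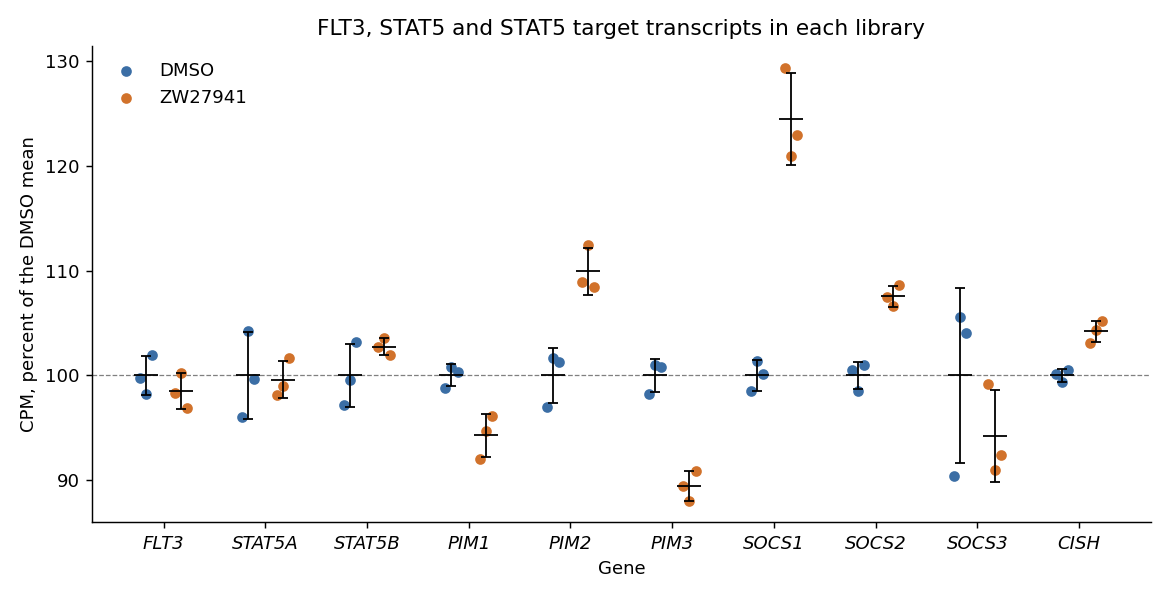
CPM of each of the 10 transcripts in every library, as a percentage of that gene's DMSO mean; points are libraries (blue DMSO, orange ZW27941), and bars give the mean and SD of 3 libraries. All 3 ZW27941 libraries lie above DMSO for PIM2, SOCS1, SOCS2 and CISH and below it for PIM1 and PIM3, and the groups overlap for FLT3, STAT5A, STAT5B and SOCS3.

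FLT3 (chr13:28003274-28100592, minus strand, GRCh38) was at 562, 554 and 574 CPM in the DMSO libraries and at 554, 565 and 546 CPM in the ZW27941 libraries. The groups overlapped. The log2 fold change was −0.022 (standard error 0.025, 95% interval −0.073 to 0.030, adjusted p = 0.565 in edgeR). FLT3 lay at the 99.0th percentile of mean CPM among genes tested. Counts per gene symbol do not separate the duplicated from the normal allele. Over the 6 libraries, the log2 CPM profiles most like that of FLT3 among 9984 genes whose mean log2 CPM reached 3 were those of SRD5A3 (Pearson r = 0.990), ATG12 (r = 0.983) and CHM (r = 0.982). This is a description over 6 points that share libraries, and the 3 genes were not called either (log2 fold changes −0.037, −0.026 and −0.033).

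STAT5A and STAT5B encode closely related proteins from neighbouring genes on chromosome 17 (chr17:42287547-42311943, plus strand, and chr17:42199168-42276707, minus strand), so reads that fit both could have been lost or split. STAT5A was at 39.5, 42.9 and 41.0 CPM in DMSO and at 40.3, 40.7 and 41.8 CPM on ZW27941. Its log2 fold change was −0.0060 (95% interval −0.072 to 0.060, adjusted p = 0.911 in edgeR), a value whose sign turned when DMSO replicate 2 was left out (0.026) or ZW27941 replicate 1 (0.0049). STAT5B was at 137, 141 and 146 CPM in DMSO and at 145, 146 and 144 CPM on ZW27941, with a log2 fold change of 0.039 (95% interval −0.015 to 0.093, adjusted p = 0.280 in edgeR). For both genes the groups overlapped. The STAT5A share of the counts of both was 22.5% ± 0.734 (SD, n = 3) in DMSO and 22.0% ± 0.415 (SD, n = 3) on ZW27941. Counted as 1 gene, STAT5A plus STAT5B changed by 0.029 on the log2 scale (standard error 0.025, adjusted p = 0.421 in edgeR).

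The 3 PIM kinases moved in different directions. PIM1 (chr6:37170203-37175426, plus strand) was at 157, 161 and 160.0 CPM in DMSO and at 147, 151 and 153 CPM on ZW27941. Every ZW27941 library lay below every DMSO library. PIM1 fell by 0.085 on the log2 scale (standard error 0.025, adjusted p = 0.0117 in edgeR). The call was lost without DMSO replicate 2 (adjusted p = 0.0514 in edgeR) and without ZW27941 replicate 1 (adjusted p = 0.0777 in edgeR), with fold changes of −0.079 and −0.068.

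PIM3 (chr22:49960513-49964080, plus strand) was at 38.8, 40.0 and 39.9 CPM in DMSO and at 35.4, 34.8 and 36.0 CPM on ZW27941. It fell by 0.16 on the log2 scale, a change of −10.5% (standard error 0.029, adjusted p = 1.96e-04 in edgeR), with no overlap between groups. PIM2 (chrX:48913182-48919024, minus strand) was at 24.8, 26.0 and 25.9 CPM in DMSO and at 27.8, 28.8 and 27.7 CPM on ZW27941, again without overlap. It rose by 0.14 on the log2 scale, a change of 9.90% (standard error 0.032, adjusted p = 0.00234 in edgeR). PIM1 made up most of the family's counts, 71.0% ± 0.199 (SD, n = 3) in DMSO and 70.3% ± 0.384 (SD, n = 3) on ZW27941. Summed, the 3 kinases came to 224 ± 2.97 CPM in DMSO and 214 ± 3.51 CPM on ZW27941 (SD, n = 3 each), with every ZW27941 library below every DMSO library.

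Among the feedback inhibitors, SOCS1 and SOCS2 rose, while SOCS3 and CISH did not pass the test. SOCS1 (chr16:11254405-11256200, minus strand), which binds JAK kinases and blocks their catalytic site, was at 16.1, 16.6 and 16.4 CPM in DMSO and at 21.1, 19.8 and 20.1 CPM on ZW27941. The lowest ZW27941 library lay above the highest DMSO library. The rise was 0.32 on the log2 scale, or 24.5% (standard error 0.036, 95% interval 0.24 to 0.39, adjusted p = 9.08e-07 in edgeR). Its absolute fold change exceeded that of 82.1% of the genes tested, and it ranged from 0.29 to 0.33 when each library was left out in turn. SOCS1 lies within the bounds of RMI2, a gene on the opposite strand with no shared exon, and RMI2 had a log2 fold change of −0.011 (adjusted p = 0.870 in edgeR).

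SOCS2 (chr12:93569814-93583487, plus strand), which damps growth hormone and cytokine receptor signalling, was the most abundant of the 4 inhibitors, with 69.0% ± 0.379 (SD, n = 3) of their counts in DMSO. It was at 167, 164 and 168 CPM in DMSO and at 179, 177 and 181 CPM on ZW27941, and the groups did not overlap. Its rise was 0.11 on the log2 scale, or 7.58% (standard error 0.024, 95% interval 0.056 to 0.15, adjusted p = 0.00173 in edgeR), an interval that ends below that of SOCS1. SOCS2-AS1, which shares exon positions with SOCS2 on the opposite strand, had a log2 fold change of −0.038 (adjusted p = 0.397 in edgeR). Whether counting used strand is not given in the sources used here.

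CISH (chr3:50606490-50611831, minus strand), the inhibitor whose promoter holds the 4 palindromes above, was at 51.3, 50.9 and 51.5 CPM in DMSO and at 52.8, 53.4 and 53.9 CPM on ZW27941. The ZW27941 libraries were all above the DMSO libraries, by a narrow margin. The log2 fold change was 0.059 (standard error 0.026, 95% interval 0.0047 to 0.11) and did not pass (unadjusted p = 0.0345 and adjusted p = 0.0953 in edgeR). CISH shares exon positions with MAPKAPK3 on the opposite strand, which had a log2 fold change of 0.051 (adjusted p = 0.160 in edgeR).

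SOCS3 (chr17:78356778-78360077, minus strand), an inhibitor of receptors that use gp130 and of the G-CSF receptor, was the least abundant. It was at 6.52, 7.62 and 7.51 CPM in DMSO and at 7.16, 6.57 and 6.67 CPM on ZW27941. The groups overlapped, and relative to its mean the spread between libraries was wider than for the other inhibitors. The log2 fold change was −0.086 (standard error 0.065, 95% interval −0.22 to 0.050, adjusted p = 0.358 in edgeR). The sum of the 4 inhibitors was 241 ± 2.16 CPM in DMSO and 259 ± 2.12 CPM on ZW27941 (SD, n = 3 each), without overlap, and SOCS2 kept 69.0% ± 0.174 (SD, n = 3) of their counts.

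**Figure D2:**
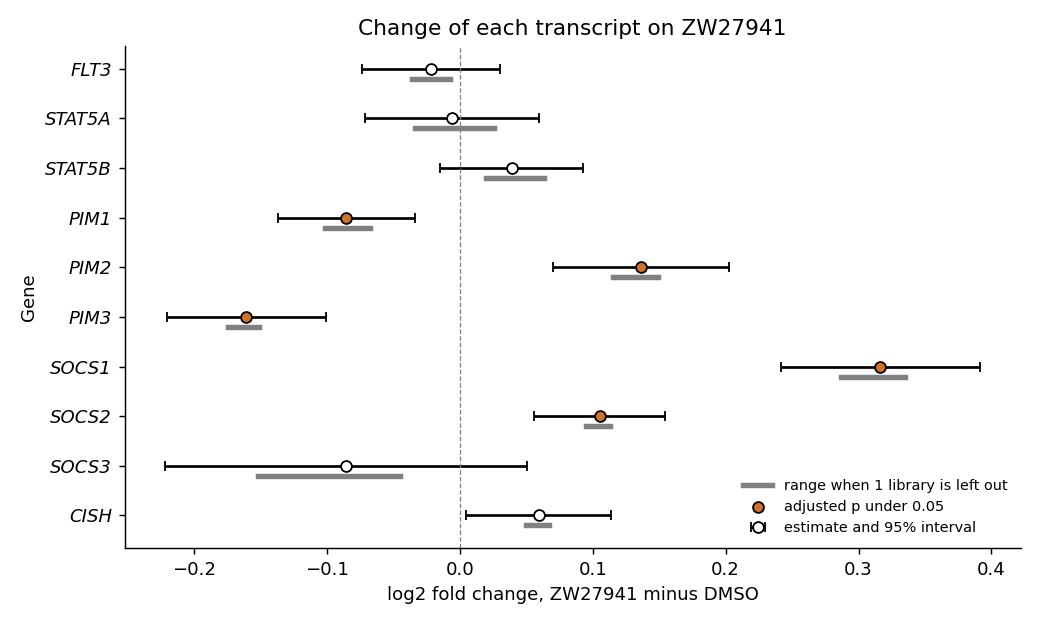
log2 fold change of each transcript on ZW27941 against DMSO, with its 95% interval, and in grey the range of values when 1 of the 6 libraries is left out; filled points have an adjusted p under 0.05. SOCS1 lies farthest from 0 at 0.32, PIM1 and PIM3 lie below 0, and the intervals of FLT3, STAT5A, STAT5B and SOCS3 include 0.

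**Figure D3:**
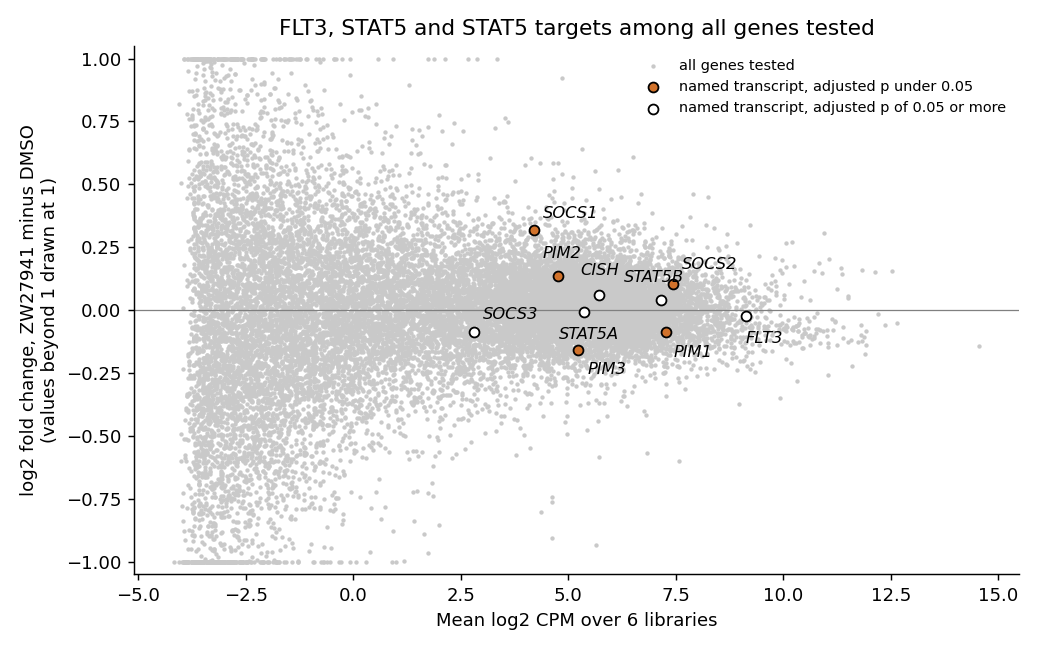
log2 fold change against mean log2 CPM for the 20399 genes tested (grey), with the 10 transcripts outlined and the called ones in orange. The changes of the 10 transcripts lie within the cloud of all genes, and SOCS1, at the 82.1th percentile of absolute change, is nearest its edge.

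Levels were compared between genes only after division by the length of merged exons in GENCODE v29. On this scale FLT3 stood first in DMSO, at 135 ± 2.49 CPM per kilobase (SD, n = 3). PIM1 followed at 53.5 ± 0.562, then SOCS2 at 24.5 ± 0.318, STAT5B at 21.9 ± 0.668 and PIM3 at 16.1 ± 0.254 CPM per kilobase (SD, n = 3 each). CISH, PIM2 and SOCS1 were close together, at 10.0 ± 0.0587, 9.26 ± 0.244 and 9.10 ± 0.132 CPM per kilobase, and the libraries of PIM2 and SOCS1 overlapped. STAT5A was at 7.14 ± 0.296 and SOCS3 at 2.64 ± 0.220 CPM per kilobase. On ZW27941 the first 5 kept their order, and SOCS1, at 11.3 ± 0.400 CPM per kilobase (SD, n = 3), stood above CISH at 10.4 ± 0.104 and PIM2 at 10.2 ± 0.205, of which the libraries of the last pair overlapped. With the length of the longest transcript in place of merged exons, the first 5 in DMSO stood in the same order, with SOCS2 at 44.5 CPM per kilobase in place of 24.5, and PIM2 was sixth, CISH seventh, STAT5A eighth and SOCS1 ninth. For CISH the merged exons (5.11 kilobases) and the longest transcript (5.04) are longer than its longest protein-coding transcript (2.17 kilobases). The place of CISH among these genes therefore depends on the length taken.

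**Figure D4:**
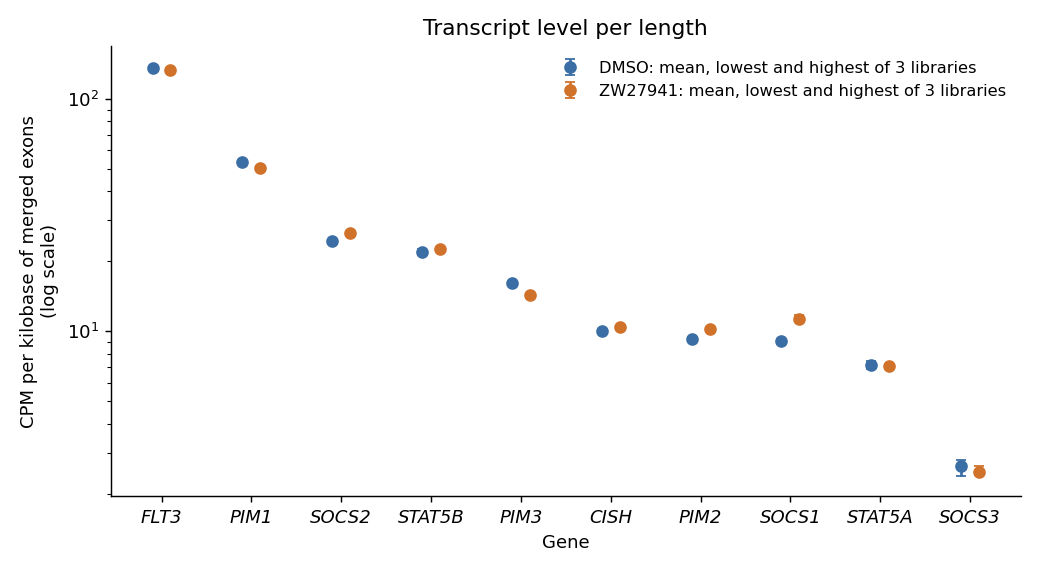
Transcript level in CPM per kilobase of merged exons, on a log scale, for the 10 genes ordered by their DMSO mean; points are means and bars run from the lowest to the highest of 3 libraries. FLT3 is highest at 135 CPM per kilobase in DMSO and SOCS3 lowest at 2.64.

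The longest protein-coding transcript of each gene was searched for GGACT, on the transcript's own strand, a form of the sequence in which METTL3 is known to place m6A. The files hold no measurement of m6A, so a match describes the sequence alone. Over 12922 genes tested the median density was 0.942 matches per kilobase. CISH (2.31 per kilobase, 5 matches) and PIM1 (2.26 per kilobase, 6 matches) had the highest densities of the 10 genes, at the 94.9th and 94.5th percentiles. SOCS3 had 1.83, STAT5A 1.63, SOCS2 1.61 and FLT3 1.56 matches per kilobase, at percentiles from 80.8 to 88.0. SOCS1, with the largest change, had 1.12 matches per kilobase (2 matches). PIM3, STAT5B and PIM2 had 0.844, 0.784 and 0.482 matches per kilobase, all under the median.

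Other genes of the pathway were examined as 6 lists with 74 genes, of which 73 were tested. On ZW27941, 16 lay higher and 12 lower in edgeR's test, which is 38.4% called. The share was 30.1% of all genes and 48.2% of genes whose mean log2 CPM reached 5, a level many pathway genes reach. By list, 46.2% of receptors and ligands, 44.4% of negative regulators and 54.5% of other STAT5 targets were called. The share was 31.2% of adaptors, 22.2% of JAK kinases and other STATs, and 16.7% of PIM kinase substrates. With upper quartile normalization the split was 10 higher and 13 lower, and over all genes it was 2644 higher and 3643 lower, where 3333 and 2816 had been found with TMM. The median log2 fold change of the 73 genes was 0.027. The genes named below include some beyond the 3 with the lowest p in each list, which were added after their values were seen.

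Of 13 receptors and ligands tested, 4 were higher and 2 lower. CSF1R, the receptor of the macrophage growth factor, went from 48.2 ± 0.516 to 63.8 ± 1.30 CPM (SD, n = 3 each), up by 0.40 on the log2 scale (standard error 0.027, adjusted p = 4.69e-10 in edgeR). IL3RA, the specific chain of the IL-3 receptor, which activates STAT5, fell from 83.0 ± 3.37 to 70.2 ± 1.60 CPM (SD, n = 3 each), a log2 fold change of −0.24. CSF2RB, the signalling chain that IL3RA pairs with, rose by 0.18. IL7R and CSF3R, the G-CSF receptor, rose by 0.24 and 0.086, and IL2RB fell by 0.26 on the log2 scale. The call of IL2RB was lost without DMSO replicate 2 or 3 or ZW27941 replicate 1 or 2, which left 1 gene lower. That of CSF3R was lost without DMSO replicate 1 or ZW27941 replicate 2 and with upper quartile normalization. FLT3LG, the FLT3 ligand, was at 0.285 ± 0.0346 CPM and 0.247 ± 0.0427 CPM (SD, n = 3 each) and was not called.

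None of the 4 JAK kinases passed the test in edgeR, at an unadjusted p under 0.05 or in DESeq2. JAK2, which couples many cytokine receptors to STAT5, was at 26.1 ± 1.08 CPM and 26.3 ± 1.36 CPM (SD, n = 3 each). STAT3, a factor that cytokine receptors using gp130 activate, fell from 124 ± 1.47 to 116 ± 2.07 CPM (SD, n = 3 each), a log2 fold change of −0.098 (adjusted p = 0.00449 in edgeR), and every ZW27941 library lay below every DMSO library.

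Of the 16 adaptors and relay proteins that carry the FLT3 signal to RAS and PI3K, 5 were higher and 0 were lower in edgeR's test, with the same counts at an unadjusted p under 0.05 and in DESeq2. That is 31.2% called, near the 30.1% of all genes tested. With upper quartile normalization 3 were higher and 0 lower (4 and 1 at an unadjusted p under 0.05), and LYN and SOS2 lost their calls. SYK, a cytoplasmic tyrosine kinase, rose from 150.0 ± 1.31 to 174 ± 2.35 CPM (SD, n = 3 each), up by 0.21 on the log2 scale (standard error 0.024, adjusted p = 6.48e-07 in edgeR). SHC1 and PIK3R1, the regulatory subunit of PI3K, each rose by 0.14. LYN and SOS2 each rose by 0.085 to 0.086, but without DMSO replicate 2 neither was called and 3 of the list remained, and SOS2 lost its call in 5 of the 6 fits that left out a library. GRB2 was at 336 ± 3.11 and 334 ± 2.62 CPM (SD, n = 3 each) and was not called.

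Of 18 negative regulators, 5 were higher and 3 lower with TMM, but 3 were higher and 4 lower with RLE normalization or with at least 10 counts required in every library, and 2 were higher and 4 lower with upper quartile normalization, so the balance depends on these settings. SOCS4 rose by 0.22, SH2B3 (LNK), an inhibitor of JAK2 signalling, by 0.14 and SOCS5 by 0.10 on the log2 scale. PTPRC (CD45) and the ubiquitin ligase CBL each rose by 0.074. PIAS3 fell by 0.10, the phosphatase PTPN6 (SHP-1) fell by 0.086 and SOCS7 fell by 0.086. The smaller of these changes were unstable. The calls of CBL and SOCS7 were lost in 5 and those of SOCS5 and PTPRC in 4 of the 6 fits that left out a library, and the list then had 2 higher and 1 lower without DMSO replicate 1 or 2, and 2 higher and 2 lower without ZW27941 replicate 1 or 2. SOCS6 was at 8.67 ± 0.343 and 8.80 ± 0.236 CPM (SD, n = 3 each), so of the 8 genes of the SOCS family in both groups of inhibitors, SOCS1, SOCS2, SOCS4 and SOCS5 rose, SOCS7 fell, and SOCS3, SOCS6 and CISH were not called.

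Of 11 other STAT5 targets, 5 were lower and 1 was higher. CDKN1A, the cell cycle inhibitor p21, was at 316, 333 and 330.4 CPM in DMSO and at 278, 268 and 275 CPM on ZW27941. CCND2, a D-type cyclin, was at 105, 108 and 108 CPM in DMSO and at 89.9, 92.2 and 89.1 CPM on ZW27941. MYC was at 386, 372 and 378 CPM in DMSO and at 339, 340 and 344 CPM on ZW27941. In each of these genes every ZW27941 library lay below every DMSO library. The log2 fold changes were −0.25 for CDKN1A (adjusted p = 2.26e-07 in edgeR), −0.24 for CCND2 (adjusted p = 3.72e-07) and −0.15 for MYC (adjusted p = 5.78e-05). In the paper's quantitative real-time PCR of MOLM13 cells on ZW27941, CDKN1A was elevated, the opposite direction, and c-MYC was decreased. The cause of the difference for CDKN1A was not tested. BCL6, a transcriptional repressor, and OSM, a cytokine, fell by 0.21 and 0.22, the latter a call lost in 5 of the 6 fits that left out a library, and MCL1, which protects from apoptosis, rose by 0.11 on the log2 scale. BCL2L1, another survival gene, was at 12.0 ± 0.405 and 12.2 ± 0.486 CPM (SD, n = 3 each) and was not called. Of 6 PIM kinase substrates, CXCR4 rose by 0.10 and 5 were not called.

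**Figure D5:**
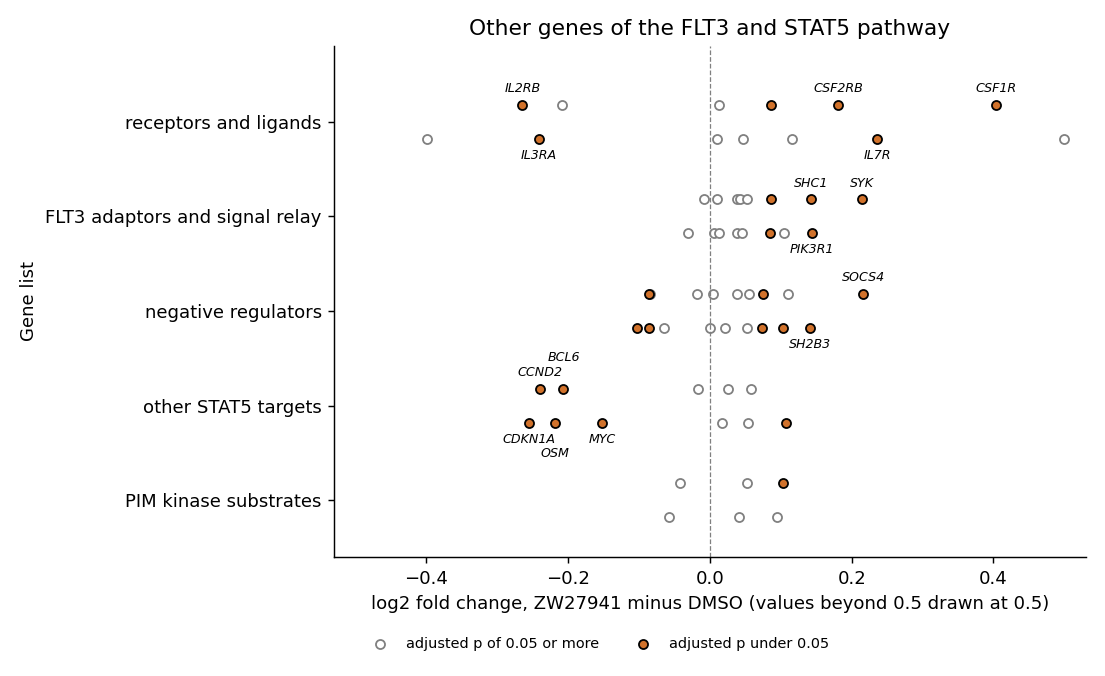
log2 fold change on ZW27941 against DMSO of the genes tested in 5 of the lists of the FLT3 and STAT5 pathway, 1 point a gene, filled where the adjusted p is under 0.05; names are given for called genes with the larger changes. Called genes lie above 0 in the adaptors (5 of 16) and mostly below 0 among the other STAT5 targets (5 lower, 1 higher). The share called was 31.2% of the adaptors and 54.5% of the other STAT5 targets, beside 30.1% of all genes tested.

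The markers fixed for the cell line were myeloid. Of 10 myeloid markers, 6 were higher and 0 were lower in edgeR's test (6 and 1 at an unadjusted p under 0.05, and 6 and 0 in DESeq2), and CD68 was near 0 at 0.231 ± 0.0217 CPM in DMSO (SD, n = 3). That is 60% called, beside 30.1% of all genes tested and 48.2% of those whose mean log2 CPM reached 5. CD33, HOXA9, MEIS1 and CD68 were not called. With upper quartile normalization 3 were higher and 1 lower. Without DMSO replicate 1 or without DMSO replicate 3, 4 were higher and 0 lower. CEBPA, MPO, ITGAM and CSF3R each lost their call in at least 1 fit that left out a library. LYZ and SPI1 kept theirs under all 14 alternatives. Their summed level ran from 2364 to 2400.1 CPM in DMSO and from 2602 to 2684 CPM on ZW27941, and LYZ, which encodes lysozyme, rose by 0.27 on the log2 scale. LYZ alone went from 963 ± 31.2 to 1160 ± 34.7 CPM (SD, n = 3 each), the larger part of the summed rise. Of 10 markers of other cell types, 4 were tested. NCAM1 was at 125 ± 1.69 CPM in DMSO and at 139 ± 3.19 CPM on ZW27941 (SD, n = 3 each). It was also called higher (log2 fold change 0.15, adjusted p = 9.83e-05 in edgeR). HBB and PPBP had no counts. The part of these marker changes in the changes of the named transcripts was not tested.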

How the data were processed

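The authors sequenced 3 RNA libraries for each of DMSO and ZW27941 (1 μM, 24 h) from MOLM13 cells. For each library they deposited unnormalized, unfiltered counts by gene symbol. The submitters' processing notes name HISAT2, SAMtools 1.19.2, HTSeq 2.0.3 and build hg38, while the annotation and strand setting are not given in the sources used here. The 5 HTSeq tallies of reads on no gene (37.4% to 39.8% of reads tallied) were left out. Samples were grouped by title.

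ZW27941 was compared with DMSO by glmQLFTest in edgeR 4.0.16 (R 4.3.3), after filterByExpr and TMM, with Benjamini-Hochberg correction across the 20399 genes that passed the filter and a threshold of 0.05. The standard error is the absolute log2 fold change divided by the square root of F. The common biological coefficient of variation was 3.11%. Replicates differed by more than counting noise (chi-square per degree of freedom 4.33 to 11.5). The fit was tested on simulated counts for this comparison over 20399 genes. Recovered were 29 of 50 genes changed by 1.2-fold, 32 of 50 by 1.5-fold and 47 of 50 by 2-fold upward. At 0.5-fold 38 of 50 were recovered, and there were 8 false calls. The changes of PIM1, PIM2, PIM3 and SOCS2 were smaller than 1.2-fold, the smallest simulated, so detection at their size was not tested.

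Gene positions and lengths came from GENCODE v29 (GRCh38), which may not be the authors' annotation. The genes and lists were chosen with earlier results of these data known. The genes named were the 10 of the pathway, the 3 called with the lowest p in each list together with MYC and CDKN1A, whose expression the paper measures, and the 3 most correlated with FLT3. Alternatives were RLE, upper quartile and no normalization factors, DESeq2 1.42.0, the likelihood ratio test, other filters, a replicate block, each library left out in turn, STAT5A and STAT5B summed, and the length of the longest transcript. Some genes of the lists are not reported here.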

Additional observations from a re-analysis of the deposited data

How the results depend on the processing

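SOCS1, SOCS2, PIM2 and PIM3 kept their direction and their call under all 14 alternatives, and FLT3, STAT5B, SOCS3 and CISH kept their direction and were called under none. Of the 10 transcripts, 5 were called under each alternative that kept all 6 libraries, and from 4 to 5 when a library was left out. PIM1 ranged from −0.10 to −0.068 when a library was left out and lost its call in 2 of those 6 fits. STAT5A changed sign to 0.0040 with library size only and to 0.029 when summed with STAT5B, and ran from −0.033 to 0.026 when a library was left out, never past the threshold. The cause was not tested. The pathway genes called numbered 28, from 23 to 29 under the other settings and from 19 to 29 with a library left out. Of the 28, 17 kept their call under all 14 alternatives. The replicate block left 5 of the 10 transcripts, 25 pathway genes and 6010 of all genes called. Same-numbered libraries did not deviate together (correlations −0.012, 0.012 and 0.017), so the numbers were not taken as pairs. With the fewest counts (935 to 1291 per library), SOCS3 had the widest interval of the 10 transcripts.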
